A study of Rattus norvegicus with 39 samples.

Results

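Nuclear tRNA genes for glutamate (Glu) and glutamine (Gln) were followed in the small RNA of rat sperm across 4 dose groups of EGME (ethylene glycol monomethyl ether, also called 2-methoxyethanol), a solvent known for its toxicity to the testis. The members were all entries of the deposited table of genomic tRNA sense counts that name Glu or Gln as the amino acid. There were 34 such entries of 402, 20 for Glu and 14 for Gln. Entries of the same anticodon with identical counts in every library were treated as 1 gene pattern, which left 17 member patterns of 242 in the table. The 4 anticodons were GluTTC (10 entries, 5 patterns), GluCTC (10 entries, 3 patterns), GlnTTG (5 entries, 4 patterns) and GlnCTG (9 entries, 5 patterns).

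The sperm came from the cauda epididymis of wild-type Fischer rats, described in the labels as males of 11 to 12 weeks, and each library held the RNA of 1 male. Every male was gavaged daily for 5 days and then left unexposed for 5 weeks before sperm were taken. The control group EGME0 received water (n = 10), and EGME50 (n = 10), EGME60 (n = 9) and EGME75 (n = 10) received 50, 60 and 75 mg/kg/d EGME. Libraries were made from 10 ng of total RNA with an Ion total RNA kit and run on 13 chips of 3 libraries.

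A tRNA carries an amino acid to the ribosome and reads the codon through its anticodon. Glutamate and glutamine each have 2 codons, ending in A or G: the anticodons TTC and TTG, which start with a wobble U in the RNA, serve the A-ending codon and can also pair with the G-ending codon, while CTC and CTG pair with the G-ending codon. Mature sperm hold little intact tRNA and many tRNA fragments, among which fragments from the 5′ end are prominent, and small RNA libraries count mainly such fragments. Counts on a tRNA gene here are therefore amounts of sequenced RNA and do not give the level of whole, charged tRNA.

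The libraries held 52085 to 5545434 tRNA counts, summed over distinct patterns. The EGME75 group had the lower median, 1434858 against 2758159 in EGME0, and the shallowest libraries of these groups were EGME75 replicate 24 and EGME0 replicate 33 (183132 counts). Of the 6 miRNAs taken as germ cell markers (the miR-34b/c and miR-449 families), all were listed, and their summed share of miRNA counts ran from 19.8 to 33.1% in EGME0, 11.1 to 25.5% in EGME50, 10.9 to 28.1% in EGME60 and 6.47 to 22.1% in EGME75, with miR-449c-5p at 0 throughout EGME0. Blood cell miRNAs, 6 of 7 listed, ran from 0.0 to 0.343% in EGME0, 0.119 to 1.24% in EGME50, 0.0216 to 2.17% in EGME60 and 0.248 to 4.82% in EGME75. Of the 7, miR-486 was not listed among the miRNA counts, so it has no value here, and miR-144-3p was at 0 in all groups but EGME60. Epithelial and muscle miRNAs, 9 of 9 listed, ran from 1.63 to 3.92%, 1.56 to 7.91%, 1.56 to 13.1% and 3.59 to 13.2% in the same order, with miR-1-3p at 0 in the 3 exposed groups. The miRNA counts per library behind these shares ran from 1098 to 38208 in EGME0 and 1681 to 33951 in EGME50. They ran from 1990 to 37020 in EGME60 and 139 to 8633 in EGME75, so extremes in EGME75 can rest on few counts. The marker shares differed between the groups and the median depth was lower in EGME75 than in EGME0, and their part in the tRNA results below was not tested. In such bulk RNA, fewer cells of a type and less RNA per cell cannot be told apart.

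The 34 entries lie on chromosomes 1, 2, 4, 8, 9, 10, 13, 15, 16, 17 and X and on unlocalised sequence assigned to chromosome 13. The most repeated pattern, named here trna16347-GluCTC after its first entry, stood for 8 identical GluCTC entries on chromosomes 1, 2, 10, 13 and 17. Pattern trna3402-GluTTC stood for 4 entries, on chromosomes 1, 8, 15 and 17, and trna10826-GlnCTG for 3, on chromosomes 8, 10 and 17. RefSeq's GRCr8 table has 10 GluTTC, 20 GluCTC, 5 GlnTTG and 11 GlnCTG genes by name, beside the 10, 10, 5 and 9 entries used here from the older Rnor_6.0 assembly. Gene copies of 1 anticodon may share reads, and how such reads were counted is not given in the sources used here, so values of single copies are uncertain. The anticodon sums were taken as the primary measure. Of the 402 entries, 160 repeated the counts of another entry of the same anticodon in every library. Some patterns kept apart were nearly alike, such as trna1646 and trna4133 of GlnCTG, at means of 2046 and 2067 counts per library. If shared reads were counted on each copy, sums, ranks and shares over such patterns hold some reads more than once. Such patterns are then not separate observations. How many reads this concerns was not tested.

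GluTTC took 4.14% ± 1.41 of all tRNA counts (SD, n = 39 libraries) and ranked 7 of 49 anticodons. GlnTTG took 1.11% ± 0.45 (rank 19), GlnCTG 0.458% ± 0.288 (rank 28) and GluCTC 0.319% ± 0.253 (rank 32). These levels pool all 4 groups. By the mean share within EGME0 the ranks were 9, 19, 30 and 38 in the same order, and within EGME75 8, 16, 24 and 28. Both anticodons starting with T thus held more counts than their partners starting with C, in sums that took identical entries once. The counts were not corrected for the length of the RNA or for reads that several patterns may share. GlnTTG and GlnCTG ranges overlapped over the 39 males, at 0.240 to 2.38% and 0.0555 to 1.15%, as did those of GlnCTG and GluCTC, the latter at 0.0531 to 1.02%.

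GluCTC, the less counted glutamate anticodon, rose at 60 and 75 mg/kg/d. Its share of tRNA counts ran from 0.0531 to 0.259% in EGME0 (median 0.107%), from 0.0675 to 0.905% in EGME50 (median 0.217%), from 0.172 to 0.555% in EGME60 (median 0.316%) and from 0.287 to 1.02% in EGME75 (median 0.515%). All 10 EGME75 males lay above the highest control, whereas the EGME50 and EGME60 males overlapped with the controls. The EGME75 difference was 1.77 log2 units (SE 0.33, edgeR quasi-likelihood test with Benjamini-Hochberg adjustment, adjusted p = 1.22e-05), and it ranked 3 from the highest of 47 anticodons tested. At EGME60 it was 1.12 log2 units (SE 0.33, adjusted p = 0.0158 by the same edgeR test). At EGME50 the estimate was 0.98 log2 units (SE 0.32), with an edgeR adjusted p of 0.191. The fitted slope on dose, expressed per 75 mg/kg/d, was 1.67 log2 units (SE 0.31, edgeR adjusted p = 3.83e-05), where 48.9% of anticodons were called, 21.3% higher and 27.7% lower. At EGME75, 53.2% of all anticodons tested were called, 23.4% higher and 29.8% lower, so a call as such was common, and at EGME60 31.9% were called, 14.9% higher and 17% lower. In the 6 chips that held both EGME0 and EGME75 males, the GluCTC share was higher in the EGME75 male in 6 of 6, by 1.72 to 3.15 log2 units.

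GlnCTG, the less counted glutamine anticodon, rose at 75 mg/kg/d and was not called at 50 or 60 mg/kg/d against control. Its share ran from 0.210 to 0.404% in EGME0 (median 0.300%), from 0.112 to 0.750% in EGME50 (median 0.294%), from 0.0555 to 0.898% in EGME60 (median 0.388%) and from 0.233 to 1.15% in EGME75 (median 0.751%). Of the EGME75 males 9 of 10 lay above the highest control and 1 lay inside the control range. The difference at EGME75 was 0.90 log2 units (SE 0.26, edgeR adjusted p = 0.00377), rank 6 of 47. At EGME50 and EGME60 the log2 estimates were -0.04 (SE 0.26, edgeR adjusted p = 0.935) and 0.18 (SE 0.27, edgeR adjusted p = 0.713). The slope was 0.71 log2 units (SE 0.26, edgeR adjusted p = 0.0195), and with chip as a block it was 0.50 with an edgeR adjusted p of 0.172. Within chips GlnCTG was higher in the EGME75 male in 5 of 6.

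GlnTTG and GluTTC, the more counted anticodons of each amino acid, did not pass the edgeR test against control at any dose with TMM scaling (trimmed means, which sets most tRNAs level between libraries) and the filter on low counts. The GlnTTG share ran from 0.721 to 1.18% in EGME0 (median 0.897%), from 0.477 to 1.63% in EGME50 (median 0.930%), from 0.240 to 1.94% in EGME60 (median 1.15%) and from 0.421 to 2.38% in EGME75 (median 1.53%). The EGME75 males spread widely, with 8 of 10 above the highest control and 1 below the lowest. With TMM the GlnTTG difference at EGME75 was 0.23 log2 units (SE 0.21, edgeR adjusted p = 0.366). Scaling by library totals alone gave 0.69 log2 units with an edgeR adjusted p of 0.0114, and it also moved the median of all 47 anticodons from 0.04 to 0.46.

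The GluTTC share ran from 2.26 to 5.36% in EGME0 (median 3.07%), from 1.88 to 5.53% in EGME50 (median 3.56%), from 3.83 to 10.1% in EGME60 (median 4.40%) and from 3.65 to 5.08% in EGME75 (median 4.40%). All 10 EGME75 males were above the control median and none above the highest control, and their spread was narrow, with an SD of 0.450 percentage points against 1.18 in EGME0. The TMM-scaled log2 difference at EGME75 was -0.08 (SE 0.21, edgeR adjusted p = 0.796). Its sign turned to 0.34 with library totals and to 0.04 with chip as a block, and neither passed the edgeR test (adjusted p = 0.0807 and 0.878). At EGME60 the estimate was 0.49 log2 units (SE 0.21, edgeR adjusted p = 0.0766), and it passed the edgeR test with library totals, at 0.61 (adjusted p = 0.0124), and with no filter, at 0.55 (adjusted p = 0.0486). It also passed on leaving out any of EGME0 replicates 25 and 33, EGME50 replicates 12 and 28, EGME60 replicate 38 or EGME75 replicates 7 and 24, at edgeR adjusted p of 0.0204 to 0.0485. EGME60 replicate 6 held the 10.1% value, and the next EGME60 male was at 6.22%. Without replicate 6 the GluTTC estimate was 0.17 log2 units (edgeR adjusted p = 0.551).

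**Figure D1:**
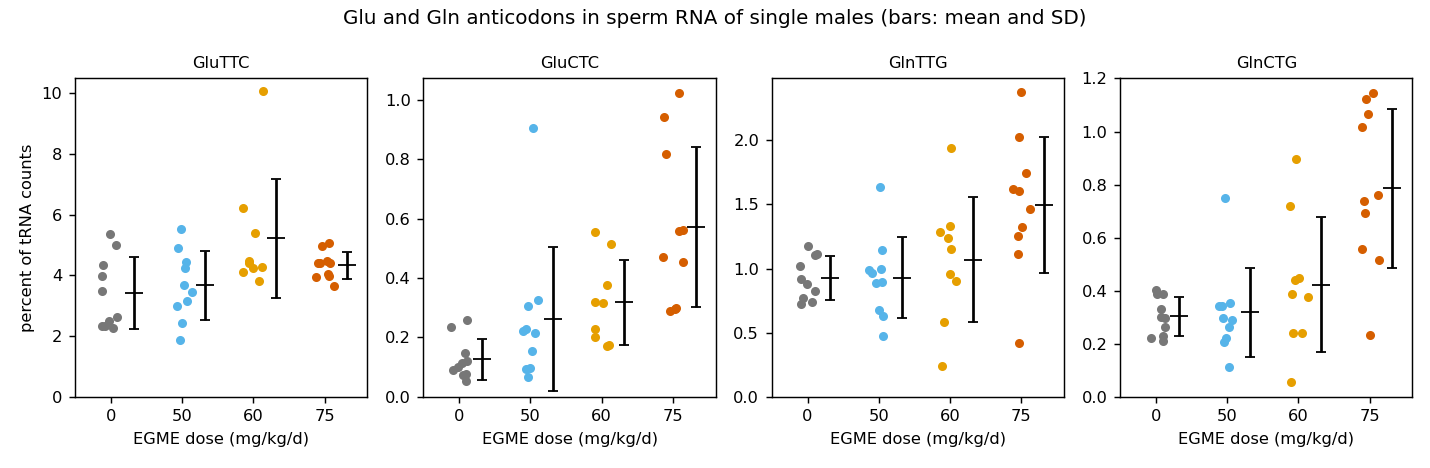
Percent of tRNA counts (y axis, linear, from 0) for each Glu and Gln anticodon by EGME dose (x axis, mg/kg/d), 1 point per male with the group mean and SD beside it. All 10 GluCTC points at 75 mg/kg/d lie above the highest control (0.259%), 9 of 10 GlnCTG points lie above theirs (0.404%), and GluTTC at 75 mg/kg/d stays inside the control range.

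The balance of the 2 anticodons within an amino acid does not depend on how the table is scaled. It may depend on how shared reads were counted. GluCTC made up 3.51% ± 1.12 of Glu counts in EGME0 (SD, n = 10), 6.05% ± 3.80 in EGME50 (n = 10), 5.96% ± 2.29 in EGME60 (n = 9) and 11.4% ± 4.59 in EGME75 (n = 10). The EGME75 range, 5.70 to 18.9%, began above the highest control at 5.62%, so the groups did not overlap. The EGME75 difference of 7.93 percentage points had a two-sided permutation p of 2e-05, the smallest that 100000 permutations can give, and 6e-05 after Benjamini-Hochberg adjustment over the 6 tests of such shares. The EGME60 difference of 2.44 points passed with an exact permutation p of 0.00974 (adjusted p = 0.0195).

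The EGME50 difference of 2.54 points had a permutation p of 0.027 (adjusted p = 0.0405), and this call rested on single males. It was lost, with adjusted permutation p of 0.0551 to 0.0811, on leaving out any of EGME0 replicates 2, 10, 17, 25 and 34 or EGME50 replicates 12, 19, 20, 35 and 36. Without EGME50 replicate 36, whose GluCTC share of Glu was 15.5%, the difference was 1.48 points.

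GlnCTG made up 24.5% ± 1.87 of Gln counts in EGME0 (SD, n = 10), 24.6% ± 3.17 in EGME50 (n = 10), 26.9% ± 5.44 in EGME60 (n = 9) and 34.3% ± 3.53 in EGME75 (n = 10). The EGME75 males, at 30.3 to 41.4%, did not overlap with the controls, at 20.8 to 26.8%. The EGME75 difference of 9.84 points had a permutation p of 2e-05 (adjusted p = 6e-05). At EGME60, 4 of 9 males were above the highest control and the difference of 2.36 points did not pass (exact permutation p = 0.215, adjusted p = 0.258). At EGME50 the difference was 0.0702 points (permutation p = 0.954, adjusted p = 0.954).

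**Figure D2:**
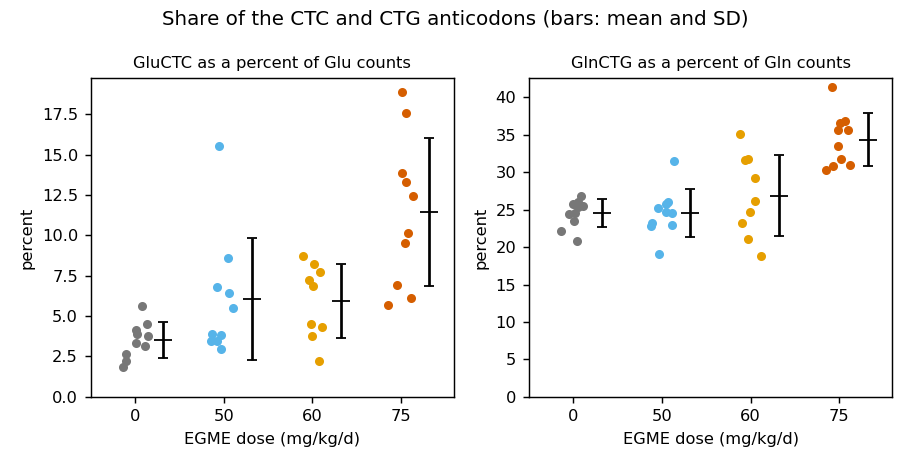
GluCTC as a percent of Glu counts (left) and GlnCTG as a percent of Gln counts (right) against EGME dose (x axis, mg/kg/d), 1 point per male with mean and SD. In both panels the lowest male at 75 mg/kg/d (5.70% and 30.3%) lies above the highest control (5.62% and 26.8%).

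All 17 member patterns were kept by the filter on low counts, among 190 patterns tested. The filter asked for 3.69 counts per 1000000 tRNA counts in at least 9 libraries, which 16 patterns met in all 39 libraries, while trna1087-GluTTC met it in 21, none of them a control. The calls below include trna1087-GluTTC at EGME60, EGME75 and for the slope. High values in exposed males were a condition of its being tested, so its own calls add no support. At EGME75, 11 of the 17 were called, all higher, where 64.7% of all patterns tested were called, 36.8% higher and 27.9% lower. The median of the 17 was 1.05 log2 units, beside 0.16 over all 190. At EGME60, 5 of 17 were called, all higher and all Glu, against a background of 21.6% called, 18.9% higher and 2.63% lower. Of the 5, 3 (trna16347-GluCTC, trna3806-GluCTC and trna1087-GluTTC) were also called with chip as a block (background 16.3%). The same 3 were called without the 3 libraries doubted for depth or an extreme GluTTC share (background 32.1%). At EGME50 edgeR and DESeq2 each called 0 of 17, against a background of 0.0%. For the slope 11 of 17 were called, all higher, against 61.1% called, 37.9% higher and 23.2% lower. The members' medians were 0.14 at EGME50 and 0.43 at EGME60, beside 0.08 and 0.14 over all patterns.

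**Figure D3:**
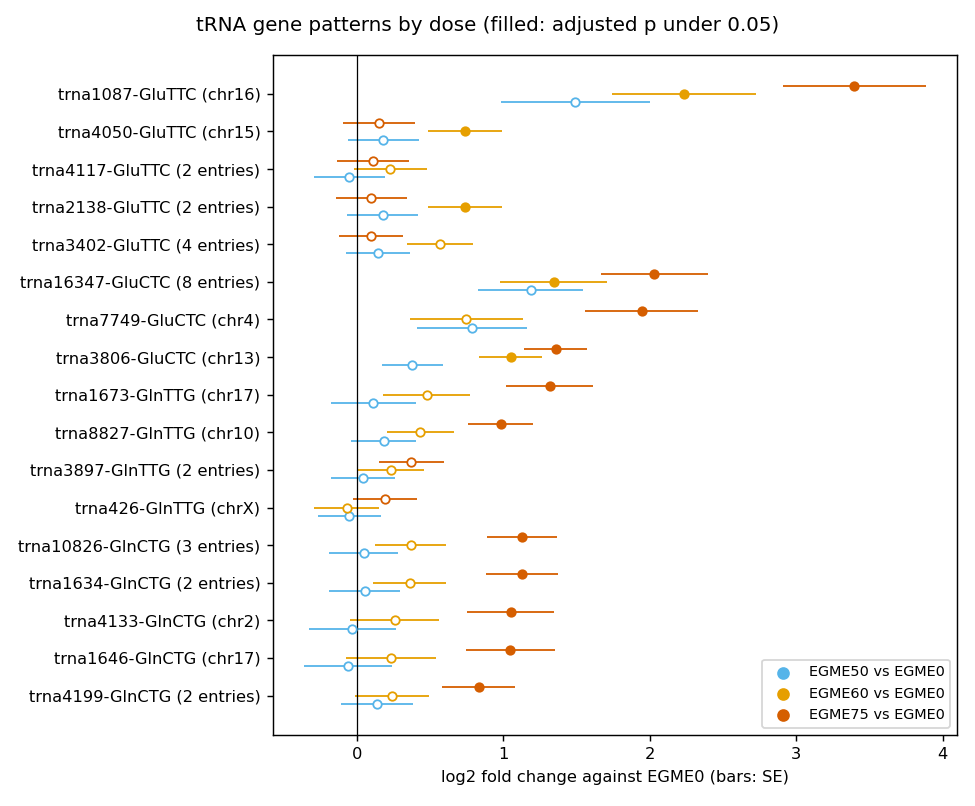
Log2 fold change against EGME0 (x axis, bars SE) of the 17 member patterns at each dose, with filled points where the edgeR adjusted p was under 0.05; names carry the chromosome, or the number of identical entries. The 11 filled points at EGME75 are all to the right of 0, from 0.83 to 3.40, and the TMM-scaled estimates of the 4 abundant or repeated GluTTC patterns and of trna426-GlnTTG near 0 turned negative under some other settings. The highest filled point, trna1087-GluTTC, passed the filter through exposed males alone.

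Among the GluCTC copies, trna16347-GluCTC held most of the reads, with a median of 87.9% of the GluCTC sum in EGME0 and 91.6% in EGME75. Its counts scaled to 1000000 tRNA counts (CPM) ran from 439 to 2480 in EGME0 (median 943), 581 to 8628 in EGME50 (median 1956), 1567 to 5256 in EGME60 (median 2771) and 2508 to 9830 in EGME75 (median 4781). Its EGME75 males did not overlap with the controls. The log2 fold change of trna16347-GluCTC was 2.03 at EGME75 (SE 0.36, edgeR adjusted p = 9.86e-06) and 1.34 at EGME60 (SE 0.36, edgeR adjusted p = 0.00613).

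The other GluCTC copies were minor. Pattern trna3806-GluCTC on chromosome 13 ran from 29.8 to 76.6 CPM in EGME0 (median 53.2), 46.8 to 232 in EGME60 (median 86.1) and 92.6 to 242 in EGME75 (median 153), again with no overlap between EGME0 and EGME75. It rose by 1.36 log2 units at EGME75 (SE 0.21, edgeR adjusted p = 1.38e-06) and by 1.05 at EGME60 (SE 0.22, edgeR adjusted p = 0.000378). Pattern trna7749-GluCTC on chromosome 4 ran from 28.3 to 159 CPM in EGME0 (median 68.0) and 121 to 1268 in EGME75 (median 169), with 6 of 10 EGME75 males above the highest control. Its difference at EGME75 was 1.94 log2 units (SE 0.39, edgeR adjusted p = 4.41e-05).

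Among the GluTTC copies, a rare one stood apart from the abundant ones. Pattern trna1087-GluTTC, the only Glu or Gln entry on chromosome 16, had a mean of 21.3 counts per library and took at most 0.181% of the GluTTC sum in any male. Its CPM ran from 0 to 3.08 in EGME0 (median 1.40), 0.369 to 21.99 in EGME60 (median 7.23) and 0 to 79.8 in EGME75 (median 15.1), and the EGME50 median was 3.25. Of the EGME75 males 9 of 10 were above the highest control, and the tenth, replicate 24, had no count. The summed counts behind these values were 47 in EGME0, 136 in EGME50, 260 in EGME60 and 389 in EGME75. A count of 0 of 52085 in EGME75 replicate 24 allows up to 57.6 CPM, and a 0 of 183132 in EGME0 replicate 33 allows up to 16.4 CPM, for counting error alone, with 3 counts as the limit. Since the filter kept trna1087-GluTTC through exposed males alone, a high value there was a condition of its being tested. Its fold changes and within-chip values are therefore given as a description. Its log2 fold change was 3.40 at EGME75 (SE 0.49, edgeR adjusted p = 3.41e-07), 2.23 at EGME60 (SE 0.49, edgeR adjusted p = 0.00102) and 1.49 at EGME50 (SE 0.51, edgeR adjusted p = 0.334). With no filter trna1087-GluTTC was at 3.20 at EGME75 (edgeR adjusted p = 1.28e-06) and 2.09 at EGME60 (edgeR adjusted p = 0.00345) on the log2 scale. Within chips it was higher in the EGME75 male in 5 of 5 chips with a count, by at least 2.29 log2 units, and in the remaining chip both males, EGME0 replicate 33 and EGME75 replicate 24, were at 0.

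The abundant GluTTC patterns moved together and were called at no more than 1 dose. Patterns trna3402, trna2138 and trna4050 held medians of 38.2, 32.6 and 28.1% of the GluTTC sum in EGME0. Across the 39 libraries their log2 CPM correlated with each other (Pearson r of 0.92 to 0.99), as a description of copies in the same libraries that may share reads, while r with trna1087-GluTTC was 0.20 to 0.28. At EGME75 their log2 estimates were 0.10, 0.10 and 0.15 (SE 0.22 to 0.24) with edgeR adjusted p of 0.719, 0.741 and 0.601, and each turned negative when every deposited entry was used (-0.23, -0.22 and -0.17). Patterns and anticodon sums were TMM-scaled in separate fits, so these values cannot be set directly beside the -0.08 of the GluTTC sum at EGME75. At EGME60, trna2138 and trna4050 were both called at 0.74 log2 units (SE 0.25, edgeR adjusted p = 0.0245), from CPM medians of 9531 and 8220 in EGME0 to 15106 and 12626. Each of these calls was lost on leaving out any of 9 single males, including EGME60 replicate 6 (0.37 and 0.34 without that male). The other 8 were EGME0 replicates 9 and 10, EGME50 replicate 36, EGME60 replicate 38 and EGME75 replicates 7, 24, 31 and 40. Pattern trna3402 was at 0.57 there (edgeR adjusted p = 0.0604). The remaining pattern, trna4117-GluTTC on chromosome 2, was at 0.11 at EGME75 (edgeR adjusted p = 0.717) and at -0.26 with every deposited entry used.

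All 5 GlnCTG copies rose at EGME75, by 0.83 to 1.13 log2 units. These copies may share reads, so the 5 are not taken as separate observations. Pattern trna10826-GlnCTG ran from 686 to 1286 CPM in EGME0 (median 864), 211 to 2657 in EGME60 (median 1270) and 686 to 3518 in EGME75 (median 2291). In EGME75, 9 of 10 males were above the highest control and 1 was at the lower end of the control range. Its difference was 1.13 log2 units (SE 0.24, edgeR adjusted p = 9.41e-05). Pattern trna1634-GlnCTG followed it closely, at 1.13 (SE 0.25, edgeR adjusted p = 0.000144), and the Pearson r between their log2 CPM over the 39 libraries was 0.999. A second close pair was trna1646 and trna4133, at 1.05 each (SE 0.30, edgeR adjusted p = 0.00268 and 0.00225), with r of 0.9997. The least abundant of the GlnCTG copies, trna4199, was at 0.83 (SE 0.25, edgeR adjusted p = 0.00338), a call lost without EGME75 replicate 7 or replicate 40, at 0.54 and 0.60. With every deposited entry used, trna1646, trna4133 and trna4199 no longer passed, at 0.69, 0.70 and 0.49.

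Of the 4 GlnTTG copies, 2 rose at EGME75 and 2 were not called, beside 36.8% of all patterns tested called higher and 27.9% lower. The X-linked pattern trna426-GlnTTG, which held a median of 73.3% of GlnTTG counts in EGME0, ran from 4972 to 8385 CPM in EGME0 (median 6733) and 2735 to 14855 in EGME75 (median 8954). Its EGME75 difference was 0.19 log2 units (SE 0.22, edgeR adjusted p = 0.441), and it turned to -0.17 with every deposited entry used and -0.02 with no filter. Pattern trna8827-GlnTTG on chromosome 10 ran from 899 to 1940 CPM in EGME0 (median 1192) and 738 to 4843 in EGME75 (median 3154), with 8 of 10 EGME75 males above the highest control and 1 below the lowest. It was 0.98 log2 units higher at EGME75 (SE 0.22, edgeR adjusted p = 0.000234). Pattern trna1673-GlnTTG on chromosome 17 was 1.32 log2 units higher (SE 0.30, edgeR adjusted p = 0.000199), from a median of 424 CPM to 1433. Pattern trna3897-GlnTTG, also on chromosome 17, was at 0.37 (SE 0.22, edgeR adjusted p = 0.135), and at 0.66 with library totals (edgeR adjusted p = 0.0341).

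The make-up of the GlnTTG sum shifted accordingly, given here as a description. The median share of trna426-GlnTTG was 73.3% in EGME0, 71.1% in EGME50, 67.8% in EGME60 and 62.3% in EGME75, with 8 of 10 EGME75 males below the lowest control and 1 above the highest. The median share of trna8827-GlnTTG was 13.3, 15.3, 16.2 and 20.2% in the same order, and that of trna1673-GlnTTG 5.23, 4.86, 5.64 and 9.24%. In both of these minor copies 8 of 10 EGME75 males were above the highest control.

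**Figure D4:**
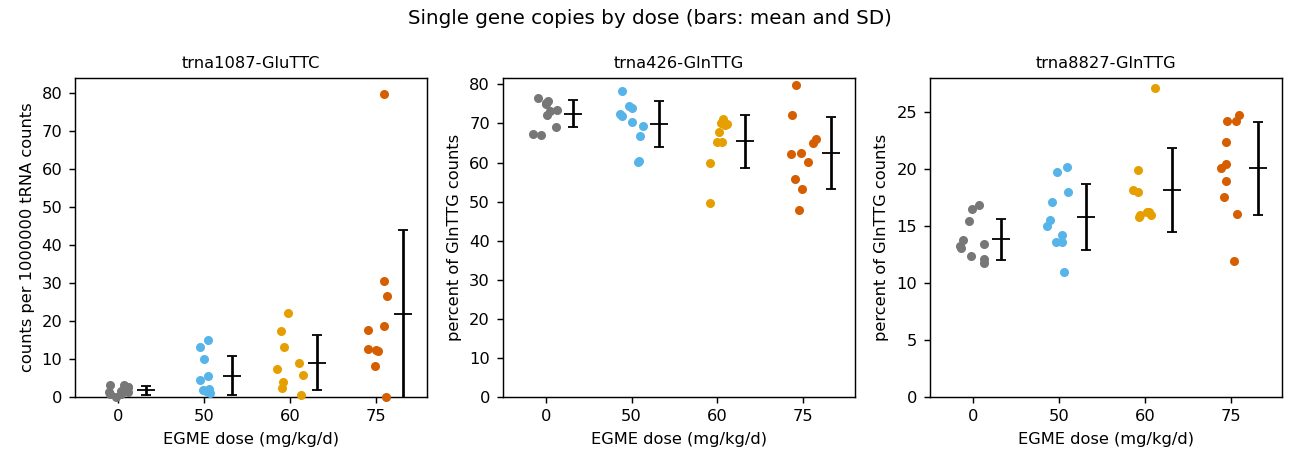
CPM (counts scaled to 1000000 tRNA counts) of trna1087-GluTTC (left), and the percent of GlnTTG counts held by trna426-GlnTTG (middle) and trna8827-GlnTTG (right), against EGME dose (x axis, mg/kg/d), 1 point per male with mean and SD. The trna1087-GluTTC median goes from 1.40 to 15.1 between EGME0 and EGME75 with 1 EGME75 male at 0, and the trna426-GlnTTG share goes from a median of 73.3% to 62.3%.

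Calls between neighbouring doses could be lost on leaving out 1 male or with chip as a block. Between EGME50 and EGME60, edgeR called 0 of 17 patterns (background 0.0%). DESeq2 called 1 of 17, trna3806-GluCTC, where it called 12.6% of all patterns tested. Between EGME60 and EGME75, 8 of 17 were called, 7 higher and 1 lower in EGME75 (background 32.1%, 14.2% higher and 17.9% lower). With chip as a block 0 of the 17 were called, as were 0.0% of all patterns tested. GlnCTG was 0.72 log2 units higher in EGME75 than in EGME60 (SE 0.27, edgeR adjusted p = 0.0359) and the GluTTC estimate was -0.57 (SE 0.21, edgeR adjusted p = 0.0359). The background for anticodons in that comparison was 34% called, 12.8% higher and 21.3% lower. Without EGME60 replicate 6 the GluTTC difference was -0.25 with an edgeR adjusted p of 0.264. The GluTTC call was also lost without any of EGME0 replicate 33, EGME50 replicate 12, EGME60 replicate 38 or EGME75 replicates 7, 15 and 39, and the GlnCTG call without any of EGME60 replicates 6, 21, 29 and 30 or EGME75 replicates 7, 15, 32 and 39 (0.58 to 0.71).

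Other tRNAs gave the setting for these values. Of 9 anticodons whose 5′ fragments are known to be abundant in sperm (GlyGCC, GlyCCC, GlyTCC, ValAAC, ValCAC, LysCTT, LysTTT, HisGTG and AspGTC), 3 rose at EGME75, 1 fell and 5 were not called, with a median of 0.31 log2 units. Over all 47 anticodons 23.4% were called higher and 29.8% lower, with a median of 0.04. LysCTT, at 1.79 log2 units, was the nearest of these to GluCTC in size, followed by ValAAC at 1.03 and HisGTG at 0.83, while GlyTCC was at -0.43. The tRNAs of the amino acids that pair with Glu and Gln as acid and amide gave -0.83 for AsnGTT, which was called, and 0.39 for AspGTC, which was not (edgeR adjusted p = 0.000869 and 0.0523). Of the other tRNAs that share a like wobble U, ArgTCT fell by 0.99 and was called, and LysTTT was at -0.29 and was not (edgeR adjusted p = 1.04e-05 and 0.132).

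The anticodons most alike over the 39 libraries were ranked by Spearman's rho of log2 CPM, as a description of libraries that share depth and dose. GluCTC was most like LysCTT (0.85), TyrGTA (0.80) and ThrAGT (0.72). The Gln anticodons were each other's nearest (0.87), and HisGTG came next for both (0.70 for GlnTTG, 0.80 for GlnCTG), then ArgTCG for GlnTTG (0.64) and ProAGG for GlnCTG (0.68). GluTTC was most like the selenocysteine tRNA SeC(e)TCA (0.77), then LeuAAG (0.59) and AsnGTT (0.53). The 2 Glu anticodons were not among each other's 3 nearest.

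Glutamate and glutamine tRNAs were also counted in the deposited RNAcentral table, whose names give the amino acid but not the anticodon, nor whether the RNA is of nuclear or mitochondrial origin. It listed 16 such entries, 11 for Glu and 5 for Gln, of which 4 passed the filter on low counts, 1 for Glu and 3 for Gln. Scaled to 1000000 RNAcentral counts, the Glu entry ran from 98.9 to 476 in EGME0 (median 315), 161 to 693 in EGME50 (median 298), 118 to 381 in EGME60 (median 217) and 91.3 to 586 in EGME75 (median 233). The groups overlapped, and the EGME75 median was below the control median. The most counted Gln entry had medians of 3447, 3505, 2184 and 750 in the same order, with 7 of 10 EGME75 males below the lowest control.

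The scaling decided how these entries were called at EGME75, where 37.8% of all 2757 RNAcentral entries tested were called (19.8% higher, 18% lower) and the median of all was -0.62 with TMM. With TMM the Glu entry was 1.04 log2 units higher (SE 0.37, edgeR adjusted p = 0.0252) and the Gln entries were at -0.91, -0.59 and -0.62, none called. With library totals the Glu entry was at 0.17 (edgeR adjusted p = 0.679) and all 3 Gln entries were called lower, at -1.65, -1.28 and -1.36. With chip as a block edgeR called 0 of 4. The share of all entries called with library totals or with chip as a block is not given here. The GlnCTG and GlnTTG sums of the tRNA gene table were at 0.90 and 0.23 beside these negative Gln values. No test of the difference between the tables was run.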

How the data were processed

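The authors deposited whole-number counts per feature, per the labels from sperm RNA of single males, for genomic tRNA genes on the sense strand and for RNAcentral and miRNA entries. The submitters' processing notes name FastQC, Bowtie and DESeq2, and the handling of reads that match several tRNA copies is not given in the sources used here. Entry names carry a chromosome and no coordinates, and no tRNA sequence was used here.

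Groups came from the dose in the labels. Entries with the same anticodon and identical counts were used once (160 repeats). Two-sided edgeR 4.0.16 quasi-likelihood tests (R 4.3.3, TMM, filterByExpr, Benjamini-Hochberg over all 190 patterns or 47 anticodons tested, threshold 0.05) used all 39 libraries. Patterns and anticodon sums were scaled in separate fits. Shares within an amino acid were compared by permutation (100000, exact with 9 males; 6 tests; scipy 1.17.1). Scripts were tested on simulated data. The patterns named were the 8 with the largest share and the 3 highest and 3 lowest fold changes with a mean of at least 10 counts at EGME75 or for the slope. The remaining patterns, the copy shares and the within-chip values were added after values were seen. Alternatives were RLE factors, library totals, no filter, every deposited entry, chip as a block, DESeq2 1.42.0, leaving out each male and leaving out 3 doubted libraries (EGME0 replicate 33, EGME60 replicate 6, EGME75 replicate 24; chosen after seeing the data). The RNAcentral table was fitted the same way (2757 entries tested), with its alternatives also chosen after seeing the data. Likeness used a prior count of 2. Members and lists were chosen with earlier results of these data known.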

Additional observations from a re-analysis of the deposited data

Results flagged for a closer look

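Among 92 sets of a group and an anticodon, pattern or share, 22 held a male far from the rest of its group by Dixon's criterion, which chance meets in about 1 in 20 sets, and gene copies of 1 anticodon may share reads, so these may not be 22 separate events. EGME60 replicate 6 was high for GluTTC (10.1% of tRNA counts, the next male at 6.22%) and for its copies trna3402, trna2138 and trna4050 (33805, 35238 and 31397 CPM). EGME50 replicate 36 was high for GluCTC (0.905% of tRNA counts, the next at 0.325%; 15.5% of Glu counts) and for trna16347-GluCTC (8628 CPM).

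EGME50 replicate 35 was high for GlnCTG (0.750% of tRNA counts, the next male at 0.352%) and for all Gln copies but trna426: trna10826 at 2148 CPM, trna1634 at 2087, trna1646 at 1353, trna4133 at 1355, trna4199 at 561, trna8827 at 3222, trna1673 at 1309 and trna3897 at 1983. EGME75 replicate 39 was high for trna1087-GluTTC (79.8 CPM, the next at 30.4), trna4199-GlnCTG (983 CPM) and trna7749-GluCTC (1268 CPM). EGME0 replicate 34 was high for trna4199-GlnCTG (362 CPM) and trna7749-GluCTC (159 CPM), and EGME0 replicate 33, with the fewest tRNA counts of its group, for trna4117-GluTTC (552 CPM).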

How the results depend on the processing

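No paired analysis was possible because each number in the labels names a different male, and no 2 groups share one. Chips, which did hold males of several groups, were used as a block in the fits and for the within-chip values. GluCTC and GlnCTG at EGME75, the GluCTC slope and the EGME75 shares of both kept their direction and their side of the threshold under all alternatives run. Leaving out 1 male gave 1.68 to 1.98 for GluCTC and 0.81 to 1.02 for GlnCTG at EGME75, 1.03 to 1.29 for GluCTC at EGME60, and 10 to 12 patterns called at EGME75. Where a result below changed, the cause was not tested. The low counts of trna1087-GluTTC and the depth of EGME75 replicate 24 limit what those values can show.

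The count called at EGME60 was 3 with no filter, with every deposited entry, with chip as a block and without the 3 doubted libraries. Of all patterns or entries tested, 21.3, 31.7, 16.3 and 32.1% were called in the same order. The count was 3 to 6 on leaving out 1 male (3 without EGME0 replicate 9 or 10, EGME50 replicate 36, EGME60 replicate 38 or EGME75 replicate 7, 24, 31 or 40). Between EGME75 and EGME60 it was 4 with library totals, 4 with every entry, 0 with chip and 3 without the doubted libraries. Of all patterns or entries tested, 19.5, 28.4, 0.0 and 21.1% were called in the same order. The 4 with every entry were 1 higher and 3 lower, and the others called were all higher. On leaving out 1 male the count was 2 to 11 (5 or fewer without EGME60 replicate 6, 21 or 29 or EGME75 replicate 7, 15, 32 or 39). Between EGME60 and EGME50 DESeq2 gave 1, with 12.6% of all patterns called, and leaving out EGME60 replicate 5 or 13 also gave 1 (range 0 to 1).

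GluTTC at EGME60 passed at 0.61 with library totals and 0.55 with no filter (0.17 to 0.61 on leaving out 1 male), and its slope at 0.44 with library totals (-0.00151, without EGME60 replicate 6, to 0.253). At EGME75 it turned to 0.34 with library totals and 0.042 with chip (-0.134 to 0.0619), and at EGME50 it ran from -0.0322 to 0.174. Against EGME60 it no longer passed at -0.27 with library totals, -0.46 with every entry, -0.23 with chip and -0.25 without the doubted libraries (-0.63 to -0.25). GluCTC passed at EGME50 without EGME0 replicate 26 (1.15; range 0.54 to 1.15) and against EGME60 without EGME60 replicate 38 (0.86; range 0.56 to 0.86).

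GlnTTG passed with library totals at EGME75 (0.69) and for the slope (0.56), and turned to 0.00558 at EGME50 and 0.209 at EGME60 (-0.163 to 0.0434). Between EGME60 and EGME50 it turned to -0.0221 with every entry and -0.0179 with chip (-0.0816 to 0.125). GlnCTG at EGME50 turned to 0.068 with library totals and 0.0195 with every entry (-0.193 to 0.0583). Against EGME60 it no longer passed at 0.54 with chip and 0.63 without the doubted libraries (0.58 to 0.86), nor did its slope at 0.50 with chip. Its share of Gln at EGME50 turned to -0.000492 as a log2 ratio, -0.0427 points without the doubted libraries and -0.127 with chip (-0.698 to 0.685), and the GluCTC share of Glu at EGME50 ran from 1.48 to 2.88 points.

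At EGME75, uncalled patterns turned negative with no filter and with every entry, at -0.0947 and -0.23 for trna3402-GluTTC (-0.15 to 0.19 on leaving out 1 male), -0.0933 and -0.22 for trna2138-GluTTC (-0.11 to 0.22), -0.0394 and -0.17 for trna4050-GluTTC (-0.0638 to 0.27), -0.0812 and -0.26 for trna4117-GluTTC (-0.17 to 0.28), and -0.0155 and -0.17 for trna426-GlnTTG (-0.0668 to 0.29). RNAcentral entries called at EGME75 numbered 3 with RLE factors, 3 with library totals, 3 with DESeq2 and 0 with chip, against 1, and 0 to 2 on leaving out 1 male (changed without EGME0 replicate 2, 26 or 33, EGME60 replicate 5 or 38, or EGME75 replicate 40). The 1 with TMM was the Glu entry, higher, while the 3 with library totals were the Gln entries, lower. The share of all entries called was given above for TMM alone, so the counts under the other settings have no background beside them. Directions with RLE factors and DESeq2 are not given here. The unfiltered RNAcentral table was not run.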
